A study of Homo sapiens with 4 samples.

Results

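The nuclear genes for the subunits of respiratory complexes II, III and IV, of ATP synthase (complex V) and for cytochrome c were examined in a human pancreatic cancer cell line made resistant to AMG510. The 40 genes were taken by symbol from a fixed list, and all 40 were found among the 57773 gene IDs of the deposited tables: 4 of complex II, 9 of complex III, 1 for cytochrome c, 11 of complex IV and 15 of ATP synthase. The 2 resistant libraries came from populations of MIA-PaCa2 cells grown in rising doses of AMG510, a small-molecule cancer drug, for 2 months, up to 5 µM. The 2 untreated libraries came from MIA-PaCa2 populations without the drug. Polyadenylated RNA was sequenced. Resistant replicate 2 is titled AMG510 but tagged AMG511, and the labels do not state whether the drug was present at harvest or whether the populations were clones.

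These complexes form the later part of oxidative phosphorylation in the inner mitochondrial membrane. Complex II passes electrons from succinate to ubiquinone, complex III passes them on to cytochrome c, and complex IV hands them to oxygen. Complexes III and IV pump protons, and ATP synthase lets the protons flow back to make ATP. Complexes III, IV and V combine nuclear subunits with subunits encoded in mitochondrial DNA, whereas complex II is wholly nuclear. The promoters of such genes are known for binding sites of NRF1, of ETS factors such as GABP, and of YY1.

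Total expected counts were 30146559 and 33074965 in resistant replicates 1 and 2, and 38052558 and 35747414 in untreated replicates 1 and 2. Levels are given in CPM, the counts of a gene scaled to the TMM-corrected size of its library. Every member had at least 898 counts in each library, so all 40 passed the filter on low counts and were tested. The cells carried the keratins KRT8 and KRT18 of epithelial cells, at 957 to 1245 CPM in resistant and 1735 to 3091 CPM in untreated libraries. Like most members, KRT8 (log2 fold change −1.23, adjusted p = 0.00268) and KRT18 (−0.88, adjusted p = 0.00692) fell, KRT18 not when untreated replicate 1 or resistant replicate 1 was left out (up to 0.0825). KRT19 did not pass and its groups overlapped (−0.50, adjusted p = 0.179). EPCAM, a further epithelial marker, was at 1.33 to 1.48 CPM in resistant and 1.39 to 2.09 CPM in untreated libraries. CDKN2A had 0 counts in all 4 libraries, which allows at most 0.104 CPM. Of the markers of other cell types, the 4 fibroblast genes summed to 5.28 and 2.52 CPM in resistant and 0.433 and 0.561 CPM in untreated libraries, and PDGFRB, at 5.07 and 2.16 CPM in resistant and 0.0542 and 0.187 CPM in untreated libraries, rose (adjusted p = 0.000769), while DCN and LUM stayed at or under 0.190 CPM. The 4 leukocyte genes summed to 33.8 and 9.44 CPM in resistant and 10.4 and 13.8 CPM in untreated libraries, nearly all of it CD68, with PTPRC at or under 0.134 CPM. The endothelial gene CDH5 was at 5.28 and 0.711 CPM in resistant and 8.12 and 3.87 CPM in untreated libraries. The part of these markers in the results was not tested.

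Windows of 150 bases at the start sites of 4 members are printed because they carry the letters searched for the 3 regulators, and because 2 of the genes fell in the resistant libraries and 2 did not pass the test. Capitals mark CGCATGCG for NRF1, CCGGAAG for ETS factors (CTTCCGG on the other strand) and AAGATGGC for YY1. The sequences are from RefSeq, build GRCh38.p14, run 5′ to 3′ on the strand of the gene, and span 125 bases before to 25 bases after the annotated start. ATP5PF lies on the minus strand at chr21:25735030-25735179, COX5B on the plus strand at chr2:97645937-97646086, ATP5MC2 on the minus strand at chr12:53676059-53676208 and SDHD on the plus strand at chr11:112086748-112086897.
ATP5PF: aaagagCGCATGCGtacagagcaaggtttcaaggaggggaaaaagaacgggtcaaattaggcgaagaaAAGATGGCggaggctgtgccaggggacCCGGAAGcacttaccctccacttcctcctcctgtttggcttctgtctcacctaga
COX5B: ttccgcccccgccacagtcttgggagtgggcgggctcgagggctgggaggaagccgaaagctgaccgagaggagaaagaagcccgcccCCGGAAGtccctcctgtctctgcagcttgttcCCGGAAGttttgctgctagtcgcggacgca
ATP5MC2: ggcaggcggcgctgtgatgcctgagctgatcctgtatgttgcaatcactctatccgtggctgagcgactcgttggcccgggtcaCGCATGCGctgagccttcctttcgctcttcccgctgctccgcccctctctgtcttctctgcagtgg
SDHD: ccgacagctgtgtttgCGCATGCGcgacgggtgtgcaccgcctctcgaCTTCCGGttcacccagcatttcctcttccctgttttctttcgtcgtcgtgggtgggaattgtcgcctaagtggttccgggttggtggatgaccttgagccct

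Setting resistant beside untreated libraries addresses how expression differs in cells selected for growth in the drug. Most members were lower in the resistant libraries, in every complex. Of the 40 members 26 fell, 0 rose and 14 did not pass (edgeR's quasi-likelihood test, Benjamini-Hochberg adjusted p below 0.05 over 16090 genes). Over all tested genes 34.0% were called, 17.4% lower and 16.6% higher. At an unadjusted p below 0.05, 30 members were lower and 0 higher, and DESeq2 and limma-voom each called 27 lower and 0 higher. The median log2 fold change of the members was −0.62, against −0.01 over all tested genes, and single members lay between −1.07 and 0.34.

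In CPM, the members summed to 4725 and 4790 in resistant replicates 1 and 2, against 7447 and 6716 in untreated replicates 1 and 2. They took 0.454% and 0.489% of all counts in resistant libraries, against 0.723% and 0.703% in untreated ones. For 35 of the 40 members both resistant libraries lay below both untreated ones, where 36.3% of all tested genes did so. For 3 members, SDHD, ATP5MG and ATP5MC2, both resistant libraries lay above both untreated ones (34.6% of all tested genes), and for COX4I1 and ATP5F1D the groups overlapped. The members' median log2 ratio was −0.01 between resistant replicates 1 and 2 and 0.12 between untreated replicates 1 and 2, with 36 of the 40 higher in untreated replicate 1. In bulk RNA, fewer cells of a type and less RNA per cell cannot be told apart.

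**Figure D1:**
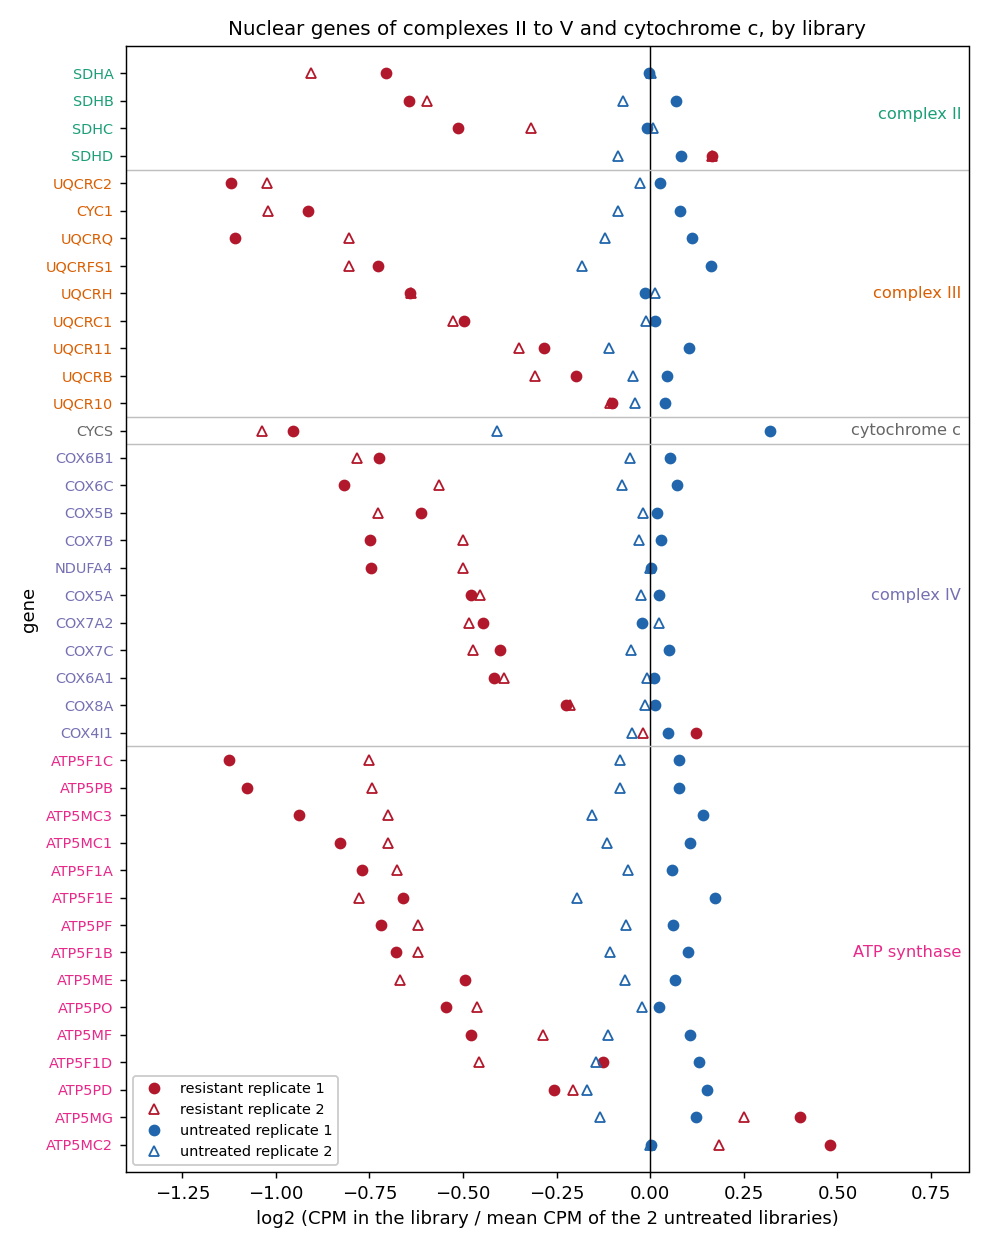
Each row is a gene, grouped by complex, and the x axis gives the log2 ratio of its CPM in a library to the mean of the 2 untreated libraries. Red symbols (resistant) lie left of both blue symbols (untreated) in 35 of 40 rows, and SDHD, ATP5MG and ATP5MC2 lie to the right.

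The number of calls depended on which libraries were kept. Fits of 3 libraries called 9 members when untreated replicate 1 was left out and 22 when untreated replicate 2 was. They called 15 when resistant replicate 1 was left out and 21 when resistant replicate 2 was. The members' median log2 fold change stayed between −0.51 and −0.65 in these fits. The calls of 8 members held in all of them: SDHA, UQCRC2, CYC1, UQCRQ, COX6B1, COX5B, ATP5F1C and ATP5PB.

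Members are well expressed and many have short transcripts, so genes alike in these respects are set beside them. Among the other tested genes with a mean of at least 30 CPM, which all members reached, the median log2 fold change was −0.06 and 22.7% were called lower (6373 genes). Among the 313 of these that are protein-coding with a transcript under 1000 nt it was −0.18, with 28.4% called lower. The 81 tested genes of cytosolic ribosomal proteins, a set chosen after its values were seen, had a median of −0.13, with 9.88% called lower.

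Complex II, the succinate dehydrogenase of the citric acid cycle, had lower transcripts for its catalytic pair, while its membrane anchors did not pass the test. Of its 4 genes 2 fell, 0 rose and 2 did not pass, with a median log2 fold change of −0.52. Over all tested genes 17.4% were called lower and 16.6% higher, and the count of so few genes was not tested against these shares. SDHA, the flavoprotein that oxidises succinate, had 204 and 178 CPM in resistant libraries, against 333 and 334 CPM in untreated ones (log2 fold change −0.80, SE 0.16, adjusted p = 0.00418). SDHB, the iron-sulfur subunit, had 79.2 and 81.9 CPM in resistant libraries, against 129.9 and 118 CPM in untreated ones (−0.62, SE 0.15, adjusted p = 0.0113). Both resistant libraries lay clearly under the untreated ones for both genes. SDHC, a membrane anchor that holds heme, had 108 and 124 CPM in resistant libraries, against 154 and 155 CPM in untreated ones (−0.41, SE 0.16, adjusted p = 0.066). SDHD, the other anchor, whose promoter is printed above, had 105 and 105 CPM in resistant libraries, against 99.4 and 88.5 CPM in untreated ones (0.17, SE 0.15, adjusted p = 0.438). The difference between the catalytic pair and the anchors was not tested. SDHB was not called without untreated replicate 1 (adjusted p = 0.0871) or without resistant replicate 1 (0.0651). With resistant replicate 1 or untreated replicate 1 left out, 1 gene of complex II was called instead of 2. SDHA counts may be shared with pseudogenes that carry 13.8% of the reads of the group, and SDHD overlaps TIMM8B on the opposite strand, with the strand setting not known.

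Complex III, which oxidises ubiquinol, had all 9 nuclear genes on the lower side. Of these 6 fell, 0 rose and 3 did not pass, with a median log2 fold change of −0.64. Over all tested genes 17.4% were called lower and 16.6% higher. UQCRC2, a core protein of the matrix side, had the largest fall of all 40 members, with 117 and 125 CPM in resistant libraries, against 259 and 249.7 CPM in untreated ones (−1.07, SE 0.16, adjusted p = 0.000834). CYC1, the cytochrome c1 that passes electrons to cytochrome c, had 118 and 109 CPM in resistant libraries, against 235 and 209.5 CPM in untreated ones (−0.97, SE 0.16, adjusted p = 0.00156). UQCRQ, a small subunit that binds ubiquinone, had 65.9 and 81.4 CPM in resistant libraries, against 154 and 131 CPM in untreated ones (−0.95, SE 0.17, adjusted p = 0.00243). These 3 members kept their calls whichever library was left out.

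UQCRFS1, the Rieske iron-sulfur protein, had 117 and 110.4 CPM in resistant libraries, against 216 and 170.1 CPM in untreated ones (−0.76, SE 0.17, adjusted p = 0.00703). UQCRFS1 was no longer called once untreated replicate 1 was left out (0.0732). UQCRH, the acidic hinge protein between cytochrome c1 and cytochrome c, had 119.9 and 120.0 CPM in resistant libraries, against 185 and 189 CPM in untreated ones (−0.64, SE 0.15, adjusted p = 0.00966). The call of UQCRH ended without resistant replicate 1 (adjusted p = 0.0564), and it shares reads with its near-identical copy UQCRHL and with pseudogenes, which carried 3.66% of the reads of the group. UQCRC1, the partner core protein, fell by 0.51 on the log2 scale (SE 0.15, adjusted p = 0.0252), and was not called in any of the 4 fits that left out a library (adjusted p 0.0576 to 0.124). The 3 members not called were small subunits, UQCR11 (−0.32), UQCRB (−0.25), and UQCR10 (−0.10, SE 0.16, adjusted p = 0.653), all 3 with both resistant libraries under both untreated ones. UQCR11 shares exons with an overlapping gene on the same strand.

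Cytochrome c itself, the mobile carrier between complexes III and IV that also triggers apoptosis once released, was lower. CYCS had 105 and 99.5 CPM in resistant libraries, against 255 and 154 CPM in untreated ones (−0.996, SE 0.23, adjusted p = 0.00909). As a ratio, the untreated libraries differed more from each other for CYCS than for any other member. Leaving out untreated replicate 1 ended the call, at −0.56 on the log2 scale (adjusted p = 0.0704), and leaving out untreated replicate 2 gave −1.33. The partners of cytochrome c in heme attachment and cell death were not called. Of the 6 tested genes of that list (HCCS, APAF1, CASP9, DIABLO, BAX and BAK1) 0 were called by edgeR, DESeq2 or limma-voom, and 0 had an unadjusted p below 0.05. With untreated replicate 2 left out, 1 was called lower. Of all tested genes 34.0% were called. The median log2 fold change was 0.08, and 2 of the 6 genes were below 0. DIABLO, which blocks caspase inhibitors, stood at 66.1 and 55.1 CPM in resistant libraries, against 56.6 and 52.1 CPM in untreated ones. HCCS, the heme lyase, had 30.8 and 28.9 CPM in resistant libraries, against 47.3 and 33.5 CPM in untreated ones. It was named after its values were seen, and did not pass (−0.44, SE 0.20, adjusted p = 0.117).

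In complex IV, cytochrome c oxidase, the nuclear subunits surround a catalytic core made in the mitochondrion. Of the 11 genes 7 fell, 0 rose and 4 did not pass, and the median log2 fold change was −0.47. Over all tested genes 17.4% were called lower and 16.6% higher. COX6B1, a subunit of the intermembrane side where cytochrome c docks, had 69.3 and 66.6 CPM in resistant libraries, against 119 and 110.3 CPM in untreated ones (−0.75, SE 0.15, adjusted p = 0.0041). COX5B, a zinc-binding subunit of the matrix side, had 84.3 and 77.8 CPM in resistant libraries, against 130.5 and 127 CPM in untreated ones (−0.67, SE 0.15, adjusted p = 0.00761). The replicates of COX6B1 and COX5B lay close together in both groups, and these 2 calls held whichever library was left out.

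COX6C, a small membrane subunit, had 35.4 and 42.1 CPM in resistant libraries, against 65.5 and 59.1 CPM in untreated ones (−0.68, SE 0.17, adjusted p = 0.0107). NDUFA4, once counted with complex I and now placed in complex IV, had 62.7 and 74.3 CPM in resistant libraries, against 105 and 105 CPM in untreated ones (−0.62, SE 0.16, adjusted p = 0.013). COX7B, another small membrane subunit, fell by 0.62 (SE 0.16, adjusted p = 0.013). These 3 calls ended without untreated replicate 1 or without resistant replicate 1 (adjusted p 0.0621 to 0.13). COX5A, a subunit of the matrix side, and COX7A2, the isoform of non-muscle tissue, fell by 0.47 each (adjusted p = 0.034 and 0.0365), and neither was called with any library left out (0.069 to 0.179). With untreated replicate 1 or resistant replicate 1 left out, 2 genes of complex IV were called instead of 7.

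COX4I1, the subunit through which ATP slows the enzyme, was the only gene of complex IV with a log2 fold change above 0. Its difference from the other subunits was not tested. COX4I1 had 272 and 247 CPM in resistant libraries, against 259 and 242 CPM in untreated ones (0.05, SE 0.16, adjusted p = 0.827), and the groups overlapped. Its sign changed to −0.0051 when untreated replicate 2 was left out and to −0.0042 when resistant replicate 1 was. COX4I1 overlaps EMC8, an expressed gene on the opposite strand. COX7C (−0.44, SE 0.16, adjusted p = 0.0523), COX6A1 (−0.40, SE 0.15, adjusted p = 0.0608) and COX8A (−0.22, SE 0.15, adjusted p = 0.282) did not pass, each with both resistant libraries under both untreated ones. COX6A1 is uncertain to the extent that it shares reads with pseudogenes, which carried 7.28% of the reads of the group. Of the tissue isoforms of these subunits few were detected. COX4I2, COX7A1 and COX7B2 had 0 counts in all libraries, and COX6A2, COX8C and NDUFA4L2 stayed under 0.3 CPM. COX6B2 was at 1.0005 and 0.918 CPM in resistant libraries, against 0.108 and 0.481 CPM in untreated ones (1.69, SE 0.68, adjusted p = 0.0807).

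ATP synthase consists of a rotary F1 head that makes ATP and of a membrane part, FO, joined by central and peripheral stalks. Of its 15 genes 10 fell, 0 rose and 5 did not pass, with a median log2 fold change of −0.65. Over all tested genes 17.4% were called lower and 16.6% higher. In the head, counted here with the subunits of the central stalk, 4 of 5 genes fell. ATP5F1A, the alpha subunit, had 476 and 509 CPM in resistant libraries, against 845 and 779.6 CPM in untreated ones (−0.72, SE 0.16, adjusted p = 0.00702). ATP5F1B, the beta subunit with the catalytic sites, had 544 and 566 CPM in resistant libraries, against 934 and 808 CPM in untreated ones (−0.65, SE 0.17, adjusted p = 0.0127). Both were not called without untreated replicate 1 (adjusted p = 0.062 and 0.124) or without resistant replicate 1 (0.0748 and 0.109). ATP5F1C, the gamma subunit that turns inside the head, had 57.7 and 74.7 CPM in resistant libraries, against 132 and 119 CPM in untreated ones (−0.93, SE 0.17, adjusted p = 0.00288), and kept its call throughout. ATP5F1E, the epsilon subunit, had 88.9 and 82.1 CPM in resistant libraries, against 159 and 123 CPM in untreated ones (−0.72, SE 0.17, adjusted p = 0.0097), and did not pass once untreated replicate 1 was left out (0.104). ATP5F1D, the delta subunit, did not pass and its groups overlapped, with 104 and 82.7 CPM in resistant libraries and 124 and 103 CPM in untreated ones.

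In the peripheral stalk and the membrane part 6 of 10 genes fell. ATP5PB, the b subunit of the peripheral stalk, had 99.7 and 126 CPM in resistant libraries, against 222 and 199 CPM in untreated ones (−0.90, SE 0.17, adjusted p = 0.0033), and kept its call throughout. It overlaps WDR77, an expressed gene on the opposite strand. ATP5PF, coupling factor 6 of the same stalk and the gene whose printed window holds the letters of all 3 regulators, had 56.6 and 60.7 CPM in resistant libraries, against 97.3 and 89.1 CPM in untreated ones (−0.67, SE 0.15, adjusted p = 0.00772). ATP5PF was not called without untreated replicate 1 (0.0622), and it overlaps GABPA, the gene of the GABP alpha chain, on the opposite strand. ATP5PO, the stalk protein that sits on top of the head, fell by 0.50 (adjusted p = 0.0301) but was not called with any library left out (0.0642 to 0.209). ATP5ME, the e subunit of the dimer interface, fell by 0.58 (adjusted p = 0.0224), and lost its call without untreated replicate 1 (0.151) or resistant replicate 2 (0.0851). ATP5MF (−0.38) and ATP5PD (−0.23) did not pass. ATP5MG, the g subunit, was higher in both resistant libraries, at 98.1 and 88.5 CPM, against 81.0 and 67.8 CPM in untreated ones, without passing (0.33, SE 0.16, adjusted p = 0.144). ATP5F1A, ATP5PD, ATP5PO, ATP5ME and ATP5MF also overlap expressed genes, so their counts may include reads of a neighbour. With untreated replicate 1 left out, 2 genes of ATP synthase were called instead of 10.

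**Figure D2:**
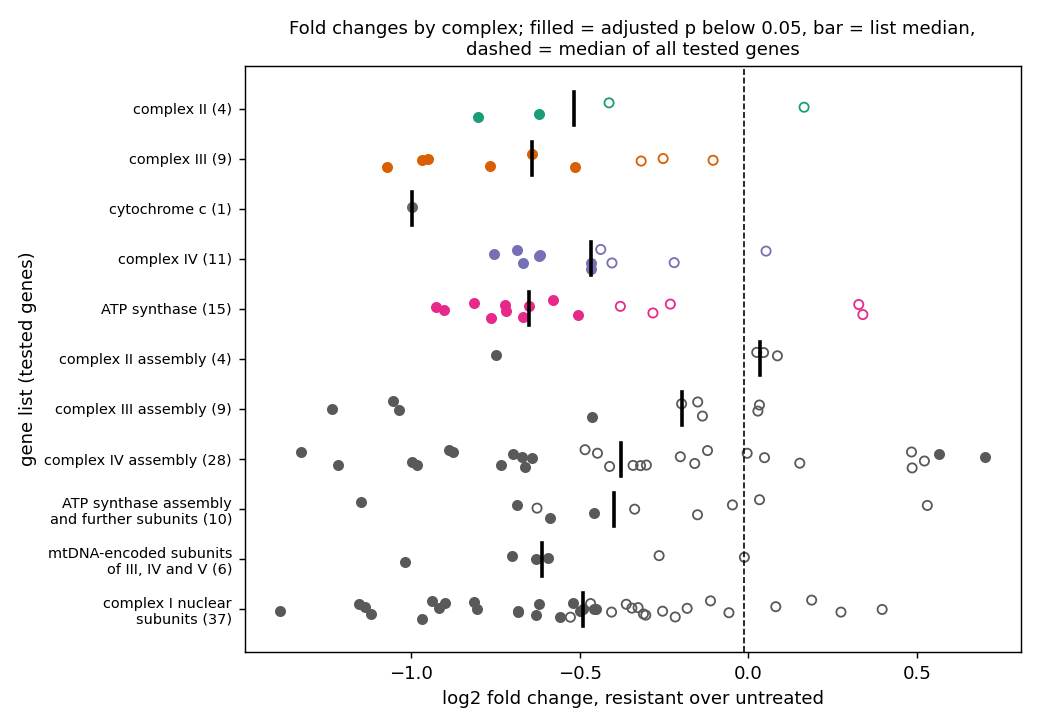
Each point is a tested gene, with its log2 fold change (resistant over untreated) on the x axis and its list on the y axis. Filled points passed an adjusted p below 0.05, bars are list medians and the dashed line is the median of all tested genes. The bars of all 5 member groups lie between −0.47 and −0.996.

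The c subunit, which forms the proton-driven ring of FO, is encoded by 3 genes, whose products differ in the cleaved leader and share the mature protein. ATP5MC3 had 139 and 164 CPM in resistant libraries, against 294 and 239 CPM in untreated ones (−0.81, SE 0.18, adjusted p = 0.00597). ATP5MC1 had 31.0 and 33.9 CPM in resistant libraries, against 59.2 and 50.8 CPM in untreated ones (−0.76, SE 0.17, adjusted p = 0.00669). ATP5MC2 had 121 and 98.7 CPM in resistant libraries, against 86.9 and 86.8 CPM in untreated ones (0.34, SE 0.16, adjusted p = 0.132). The first 2 fell, but did not pass once untreated replicate 1 was left out (0.0553 and 0.067), while ATP5MC2 lay above both untreated libraries in both resistant ones without passing.

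Per kb of annotated transcript (606, 878 and 842 nt for ATP5MC1, ATP5MC2 and ATP5MC3), ATP5MC2 gave 38.9% and 30.9% of the level in resistant libraries, against 18.1% and 21.2% in untreated ones. Its share averaged 34.9% ± 5.66 in resistant libraries and 19.6% ± 2.19 in untreated ones (SD, n = 2 each; exact permutation test, two-sided p = 0.333, the smallest that 2 against 2 libraries allow). The summed level of the 3 genes was 359 ± 6.17 CPM per kb in resistant libraries and 507 ± 56.0 CPM per kb in untreated ones. ATP5MC3 had the highest level per kb of the 3 genes in each of the 4 libraries. In level per kb ATP5MC2 came next in all 4 libraries and ATP5MC1 last, with a gap of 138 to 51.1 CPM per kb in resistant replicate 1 and of 98.9 to 83.9 CPM per kb in untreated replicate 2. In untreated replicate 1 both were almost equal in level per kb, with 18.1% of the summed level for ATP5MC2 and 17.9% for ATP5MC1, so their order in the untreated libraries is within the spread.

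**Figure D3:**
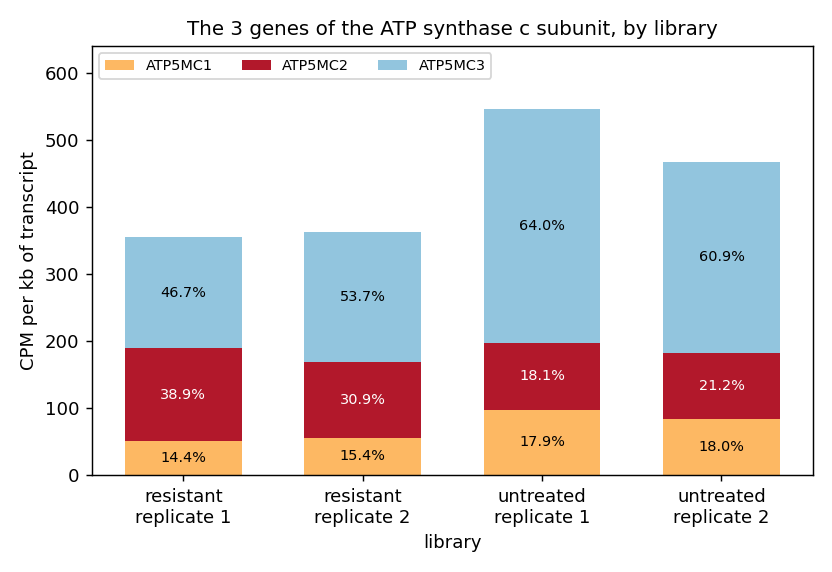
Stacked bars give the CPM per kb of transcript of the 3 c subunit genes in each library, with the share of each gene printed in its bar. The red part, ATP5MC2, is 38.9% and 30.9% of the resistant bars, against 18.1% and 21.2% of the untreated ones.

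Members lie on 20 chromosomes, and these differed in the median log2 fold change of their other protein-coding genes, between −0.41 on chromosome 5 and 0.46 on chromosome 22. Of the 40 members 38 lay below the median of their own chromosome. Over all 40 the median of the difference was −0.55 on the log2 scale, and on all 20 chromosomes the members' median was under that of the other genes. The members above their own chromosome median were ATP5MC2 on chromosome 12 and COX4I1 on chromosome 16. Of the members that did not pass the test, SDHD, COX8A and ATP5MG lie on chromosome 11, where the other 735 genes had a median of 0.42, and UQCR10 is on chromosome 22. Relative to those medians SDHD was at −0.26, COX8A at −0.64, ATP5MG at −0.09 and UQCR10 at −0.57. On chromosome 5, where SDHA, UQCRQ and COX7C lie, COX7C was at −0.03 relative to the chromosome median. The part of the chromosome in these values was not tested.

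**Figure D4:**
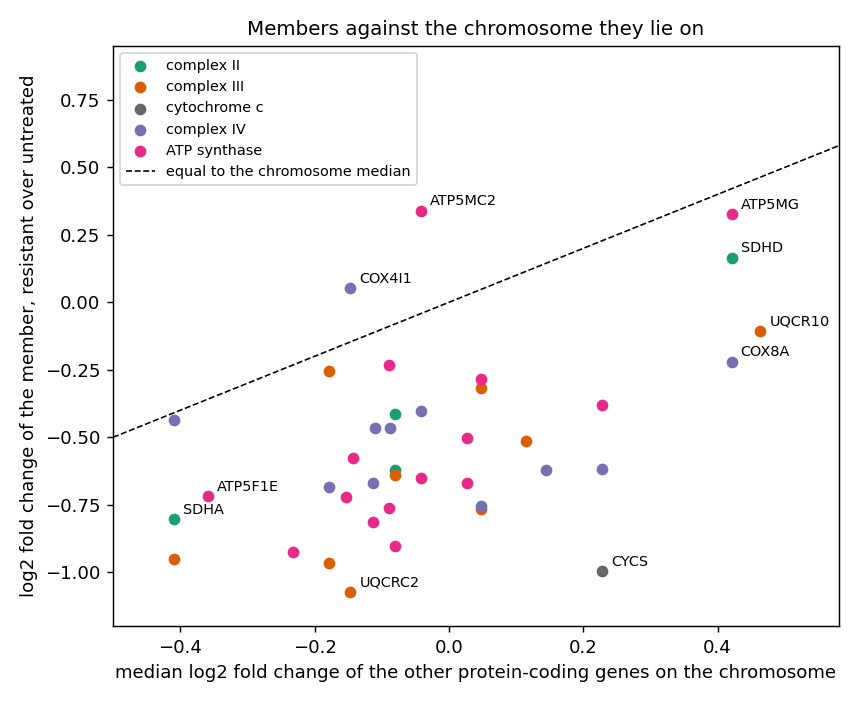
Each point is a member, with the median log2 fold change of the other protein-coding genes on its chromosome on the x axis and its own log2 fold change on the y axis. The dashed line marks equality, and 38 of 40 points lie below it.

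Promoter sequences were at hand for 31 of the 40 members. Of these 14 (45.2%) held CCGGAAG on either strand between 250 bases before and 50 bases after the start, 6 (19.4%) held CGCATGCG and 5 (16.1%) held AAGATGGC. Over all 35116 promoters of the table the shares were 10.3%, 2.02% and 2.89%, and over the 10344 of tested protein-coding genes they were 19.3%, 3.92% and 5.36%. Falls occurred with and without these letters. Of the 14 members with CCGGAAG 7 fell, with a median log2 fold change of −0.49, and of the 17 without it 14 fell, with a median of −0.72. All 5 members with AAGATGGC fell (ATP5PB, ATP5PF, ATP5PO, SDHB and UQCRC1), and 16 of the 26 without it did. Among the 6 with CGCATGCG, ATP5F1C, ATP5ME and ATP5PF fell, whereas ATP5MC2, COX6A1 and SDHD did not pass. ATP5F1B, ATP5F1D, ATP5MC3, ATP5MF, COX6C, CYC1, NDUFA4, SDHC and UQCRB had no entry.

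A list of regulators of the complexes holds regulators of nuclear genes and also genes that act on mitochondrial DNA, among them TFAM, TFB2M and POLRMT. Of its tested genes TFAM, which packs mitochondrial DNA and takes part in starting its transcription, had the largest change. TFAM had 24.8 and 33.2 CPM in resistant libraries, against 90.2 and 69.3 CPM in untreated ones (−1.46, SE 0.20, adjusted p = 0.000575), and kept its call whichever library was left out. Of the 12 tested regulators 3 fell, 1 rose and 8 did not pass, with a median log2 fold change of −0.18. This share is near the background of 34.0% called over all tested genes, of which 17.4% were lower and 16.6% higher, and is no result about the regulators as a list. TFB2M, a partner of the mitochondrial RNA polymerase, fell by 0.89 (adjusted p = 0.00835, and 0.106 without untreated replicate 1). PPARGC1B, a coactivator of respiratory genes, fell by 0.74 (adjusted p = 0.0201, and up to 0.0753 when any library was left out). YY1 rose by 0.51 (adjusted p = 0.0462), and was not called without untreated replicate 1, untreated replicate 2 or resistant replicate 1 (up to 0.315). POLRMT, the mitochondrial RNA polymerase, and PPRC1, a relative of PPARGC1B, did not pass (0.17 and −0.47). NRF1 (−0.37, SE 0.21, adjusted p = 0.196) and GABPA (0.08, SE 0.19, adjusted p = 0.782), looked up after their values were seen, did not pass.

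Lists of assembly factors, which build the complexes without staying in them, held genes that fell and genes that did not. The list for complex IV also holds genes of other roles, such as TACO1, SLIRP and HIGD1A described below. Of its 28 tested genes 11 fell, 2 rose and 15 did not pass, with a median of −0.38. The assembly factors in the narrow sense were not counted apart. Of all tested genes 34.0% were called, 17.4% lower and 16.6% higher, and the list was not tested against that share. HIGD1A, an interactor of complex IV, had 31.5 and 40.4 CPM in resistant libraries, against 98.9 and 81.4 CPM in untreated ones (−1.33, SE 0.18, adjusted p = 0.00058). TACO1, which activates translation of mitochondrial COX1, fell by 0.996 (adjusted p = 0.00205), SLIRP, which steadies mitochondrial messenger RNA, by 0.98 (0.00333) and SCO1, a copper chaperone, by 0.88 (0.00361), and these 4 calls held whichever library was left out. COX19 (0.57, adjusted p = 0.033) and COA8 (0.70, adjusted p = 0.0181), named after their values were seen, rose, and each lost its call without untreated replicate 2 or resistant replicate 1 (up to 0.164), COX19 also without untreated replicate 1. COX15, which makes heme A, and COA1 did not pass (−0.20 and −0.12). The number that fell was 5 without untreated replicate 1 and 6 without resistant replicate 1.

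For complex III 4 of 9 assembly factors fell, 0 rose and 5 did not pass, with a median of −0.20 (edgeR; DESeq2 and limma-voom each had 3 lower and 0 higher, and 0 were higher at an unadjusted p below 0.05). With the other scalings, the other filters, the replicate block or the other quasi-likelihood form 3 were lower as well. BCS1L, which inserts the Rieske protein, had 18.9 and 20.0 CPM in resistant libraries, against 44.8 and 35.0 CPM in untreated ones (−1.04, SE 0.19, adjusted p = 0.00279). LYRM7, a chaperone of the Rieske protein, fell by 1.05 (adjusted p = 0.00323), and both held in all fits that left out a library. UQCC4 fell by 1.23 (adjusted p = 0.00555, and 0.0677 without untreated replicate 1) and UQCC1 by 0.46 (0.0482, and not called with any library left out, up to 0.266). TTC19 and UQCC2 did not pass (−0.20 and −0.15). Of 4 complex II factors SDHAF3 fell by 0.75 (adjusted p = 0.03, and up to 0.277 without untreated replicate 1 or resistant replicate 2), while SDHAF2 and SDHAF4 did not pass (0.09 and 0.05). In a list of 10 genes that holds assembly factors, inhibitors and further subunits of ATP synthase, and also NUBPL, known from the assembly of complex I, 4 fell, 0 rose and 6 did not pass, with a median of −0.40 (DESeq2 called 1 higher, limma-voom 0, and 1 was higher at an unadjusted p below 0.05). TMEM70, which helps to build the c ring, fell by 1.15 (adjusted p = 0.00929, and 0.111 without untreated replicate 1). ATP5MK fell by 0.59 (0.0198), NUBPL by 0.69 (0.0255) and ATPAF1, a chaperone of the beta subunit, by 0.46 (0.0393), each losing its call in at least 2 of the 4 fits that left out a library. ATP5IF1, the inhibitor of ATP hydrolysis, and ATP5MJ did not pass (−0.15 and −0.05). Among all tested genes 34.0% were called, 17.4% lower and 16.6% higher, and the counts of these short lists were not tested against that share. With untreated replicate 1 left out, 2 of the complex III factors and 1 of the ATP synthase list were called lower.

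The mitochondrially encoded subunits of the same complexes were lower for cytochrome b and for part of the others. All genes of mitochondrial DNA together took 5.21% and 4.71% of counts in resistant libraries, against 5.08% and 6.02% in untreated ones. In that share the groups overlapped. MT-CYB, the cytochrome b of complex III, had 950.4 and 1112 CPM in resistant libraries, against 2208.5 and 1966 CPM in untreated ones (−1.02, SE 0.17, adjusted p = 0.0017). MT-CO3 (−0.70), MT-ATP6 (−0.63) and MT-ATP8 (−0.595) fell as well, but not when untreated replicate 1 or resistant replicate 1 was left out (at most 0.289), whereas MT-CO1 (−0.01) and MT-CO2 (−0.26) did not pass. Nuclear subunits of complex I, the NADH dehydrogenase before complexes II to V, had 20 of 37 lower, 0 higher and 17 not passing, with a median of −0.49 (edgeR; 18 lower and 0 higher with DESeq2, 19 lower and 0 higher with limma-voom, and 1 higher at an unadjusted p below 0.05). With a replicate block 17 were lower. Of all tested genes 17.4% were called lower and 16.6% higher. NDUFAB1, which carries the acyl chain used in fatty acid and iron-sulfur synthesis, fell (−1.39, adjusted p = 0.000239), as did NDUFB10 (−1.15, 0.000468), the iron-sulfur subunit NDUFV2 (−1.14, 0.000622) and NDUFA9 (−0.97, 0.00116), and these 4 calls held whichever library was left out. NDUFB11 (0.19) and NDUFV1 (0.08) did not pass. The number lower was 9 without untreated replicate 1 and 9 without resistant replicate 1. Whether the members of complexes II to V differ in this from complex I was not tested.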

How the data were processed

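Each library has a deposited table of expected counts by gene, without scaling for depth, per the file headers. The programs STAR 2.7.2b and RSEM 1.3.1 and the genome build GRCh37 are named in the submitters' processing notes without their roles. The annotation release and the strand setting are not given in the sources used here. Of all values 93.6% were whole, and counts were rounded for the tests. A gene name table gave symbols for 39538 of 57773 IDs, and chromosome names, overlaps and transcript lengths from GENCODE 29, of another build. All 40 members matched by their current symbols.

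Groups came from the sample titles. Genes were kept with filterByExpr (16090), scaled with TMM (factors 0.962 to 1.05) and compared with edgeR 4.0.16's quasi-likelihood test (robust, default form; R 4.3.3), with Benjamini-Hochberg adjustment over all tested genes and a threshold of 0.05. Fold changes are log2, resistant over untreated, and SE is their size divided by the square root of F. The test was also run on simulated counts with known changes, and its recovery of changes as small as those of the members is not reported here. The alternatives tried were scaling by RLE or upper quartile, no filter, a stricter filter (1 CPM in 2 libraries), a replicate block, each library left out, a threshold of 0.01, DESeq2 1.42.0, limma-voom (limma 3.58.1), edgeR's other quasi-likelihood form, and counts of members summed with their named copies.

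Members, lists and tests were chosen with earlier results of these data known. Named genes were all members, up to 4 called genes per list with the smallest adjusted p, up to 2 not called with the highest level, all tissue isoforms and the 6 mitochondrial subunits. In 2 cases, a factor and a marker, a listed symbol had no matching ID. Nothing states that replicates were cultured apart, so the p-values cover only how far these libraries spread, which may be technical, and the floor of 3 counts covers counting error only. Levels of different genes are compared per transcript length only.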

Additional observations from a re-analysis of the deposited data

How the results depend on the processing

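The members kept their direction under RLE and upper-quartile scaling, no filter, a stricter filter, the replicate block, DESeq2, limma-voom, the other quasi-likelihood form and the addition of named copies, and their calls too, except that COX7C passed with upper-quartile scaling, DESeq2, limma-voom and the other quasi-likelihood form (adjusted p 0.0471 to 0.0498). With a threshold of 0.01 the members called lower numbered 16 instead of 26, and the genes called over all tested genes 2832 instead of 5463. With each library left out in turn, 9 to 22 members and 2832 to 5041 genes were called, and the median log2 fold change lay between −0.56 and −0.64 for complex III and between −0.50 and −0.74 for ATP synthase. These fits hold fewer libraries, and the part of that in the lower numbers of calls was not tested. COX4I1 (0.05) changed sign there, at −0.0051 without untreated replicate 2 and −0.0042 without resistant replicate 1, within −0.0051 to 0.1235 over the 4 fits, and the cause was not tested. The median over all tested genes lay between −0.03 and 0.03 in all settings. Libraries with the same replicate number did not deviate together (r = −0.0604 for their deviations from the group means), and with a replicate block 26 members and 5275 genes were called. At the depth of at least 898 counts per member and library, the spread between libraries rather than counting error limits these comparisons.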

Other observations

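Proteins that work beside complexes II to V have not been described above. Of 10 electron donors to ubiquinone and carriers of ADP and phosphate 4 fell, 0 rose and 6 did not pass, with a median log2 fold change of −0.40 (edgeR; DESeq2 and limma-voom also had 4 lower and 0 higher, and at an unadjusted p below 0.05 there were 5 lower and 0 higher). Over all tested genes 34.0% were called, 17.4% lower and 16.6% higher, so the share of 4 in 10 called is near the background. SLC25A5, an ADP/ATP carrier, had 402 and 404 CPM in resistant libraries, against 684 and 577 CPM in untreated ones (−0.65, SE 0.17, adjusted p = 0.0136). SLC25A4, the carrier of muscle and heart, had 11.4 and 14.1 CPM in resistant libraries, against 26.6 and 22.0 CPM in untreated ones (−0.93, SE 0.22, adjusted p = 0.00833). SLC25A6, a further ADP/ATP carrier, had 1005 and 842 CPM in resistant libraries, against 939 and 816 CPM in untreated ones, and did not pass (0.07, adjusted p = 0.773), nor did the phosphate carrier SLC25A3 (0.09). GPD2, which feeds electrons from glycerol-3-phosphate into the chain, fell by 0.99 (adjusted p = 0.0124) and ETFA, of the fatty acid route, by 0.51 (0.0236). The 4 calls ended without untreated replicate 1 (adjusted p up to 0.138), those of SLC25A5 and ETFA also without resistant replicate 1, and that of ETFA also without resistant replicate 2.

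Values differed among the copies of SDHA, and the differences between copies were not tested. The copy named AC132008.2 had the most counts of them, 773 and 1149.8 in resistant libraries, against 471 and 479 in untreated ones, before scaling. SDHAP1, a pseudogene, had 18.1 and 21.6 CPM in resistant libraries, against 11.5 and 12.1 CPM in untreated ones (0.75, SE 0.22, adjusted p = 0.0221), and lost its call without untreated replicate 1, untreated replicate 2 or resistant replicate 2 (up to 0.117). SDHAP3, another pseudogene, had 2.73 and 4.06 CPM in resistant libraries, against 8.37 and 7.21 CPM in untreated ones (−1.196, SE 0.33, adjusted p = 0.0175), and lost its call without untreated replicate 1 or resistant replicate 1 (up to 0.1). SDHAP2 was listed at 0 in resistant replicate 1 and untreated replicate 2, with 1.13 CPM in resistant replicate 2 and 1.46 CPM in untreated replicate 1. UQCRHL, the copy of UQCRH, had 5.00 and 3.94 CPM in resistant libraries, against 7.74 and 6.62 CPM in untreated ones (−0.69, SE 0.31, adjusted p = 0.109), and ATP5MGL had 9 counts over the 4 libraries. COX7A2L, which links complexes III and IV, stood at 111 and 93.9 CPM in resistant libraries, against 88.5 and 81.5 CPM in untreated ones (0.27, SE 0.16, adjusted p = 0.22).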
